A study of Mus musculus with 7 samples.

Results

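The genes described are 10 of the 38124 in the count table, the *Sox* transcription factors *Sox1*, *Sox2*, *Sox3*, *Sox4*, *Sox5*, *Sox6*, *Sox8*, *Sox9*, *Sox10* and *Sox11*, which were picked by symbol as relatives of the gene carried by the construct. RNA-Seq was performed on High RFP cells, the sorted cells with the strongest RFP fluorescence, from neocortex of mouse embryos of the *Tis21*-CreERT2 line. At E13.5 the neocortex was electroporated in utero, for 3 libraries with the control construct (Control 1, 2 and 4) and for 4 with the conditional Sox9 expression construct (labelled Sox9 1 to 4), and cells were collected 48 hr later at E15.5. Mothers of both groups received tamoxifen, which activates the Cre recombinase expressed from the *Tis21* locus, a gene of progenitors that are about to produce basal progenitors or neurons. Both constructs use the CAG promoter, with a floxed membrane GFP cassette that Cre removes to allow expression of nuclear RFP, and the Sox9 coding sequence stands in front of the RFP only in the conditional Sox9 expression construct. Cells that arise from a recombined progenitor keep the RFP cassette active. Each sort pooled cortices of several embryos, according to the methods. The question addressed here is how the mRNA of *Sox9* itself and of its relatives compared between the groups.

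SOX proteins share the HMG box, a DNA-binding domain that inserts into the minor groove and bends the DNA, and they act with partner factors that differ between cell types. The SoxB1 proteins (*Sox1*, *Sox2*, *Sox3*) keep neural progenitors undifferentiated. The SoxC proteins (*Sox4*, *Sox11*) act in newborn neurons. The SoxD proteins (*Sox5*, *Sox6*) lack an activation domain of their own and work with other factors, and the SoxE proteins (*Sox8*, *Sox9*, *Sox10*) are known for gliogenesis, neural crest and, together with SoxD, cartilage.

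The start of the HMG box is shown because SOX proteins share this domain, so that reads of one mRNA might there be taken for another. Each sequence is the first 60 coding bases of the box in the GENCODE annotation of mm10, 5′ to 3′ on the coding strand, and capitals mark bases that differ from *Sox9*. The *Sox9* stretch lies in exon 1 of 3, the *Sox8* stretch in exon 1 of 3, that of *Sox10* in exon 3 of 5 and that of *Sox5* in exon 13 of 15, while *Sox2* and *Sox4* have a single exon.
Sox9: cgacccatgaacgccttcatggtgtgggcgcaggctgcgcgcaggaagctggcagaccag
Sox8: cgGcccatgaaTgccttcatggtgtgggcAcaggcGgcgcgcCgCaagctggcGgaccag
Sox10: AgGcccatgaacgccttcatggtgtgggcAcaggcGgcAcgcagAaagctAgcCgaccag
Sox2: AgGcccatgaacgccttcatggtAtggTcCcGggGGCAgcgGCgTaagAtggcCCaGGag
Sox4: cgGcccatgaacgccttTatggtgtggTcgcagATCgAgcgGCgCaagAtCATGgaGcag
Sox5: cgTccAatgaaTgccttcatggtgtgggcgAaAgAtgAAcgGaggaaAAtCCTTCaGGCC
Over these 60 bases *Sox8* differed from *Sox9* at 7 positions, *Sox10* at 8, *Sox4* at 16, *Sox2* at 18 and *Sox5* at 20. The mouse *Sox9* stretch lies at chr11:112782903-112782962, *Sox8* at chr17:25570163-25570222, *Sox10* at chr15:79163342-79163401, *Sox2* at chr3:34650548-34650607, *Sox4* at chr13:28952782-28952841 and *Sox5* at chr6:143841214-143841273. Over the whole box of 210 bases, identity with *Sox9* was 86.2% for *Sox8* and 83.3% for *Sox10*, 75.2% and 73.8% for *Sox11* and *Sox4*, between 70.5% and 71.9% for the SoxB1 genes, and 61.4% and 56.2% for *Sox5* and *Sox6*. Reads were 75 bases long, and no stretch of 75 bases was shared by the annotated transcripts of any 2 of the 10 genes. A read without errors could thus be assigned to 1 of them.

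In the table, 9 of the 10 *Sox* genes had enough counts to be tested, and *Sox10* did not. None of the 9 was called at the threshold used here, a Benjamini-Hochberg adjusted p under 0.01 in edgeR's quasi-likelihood test. DESeq2, with its filtering set for the same threshold, likewise called 0. Of all 16522 genes tested, the libraries labelled Sox9 had 11.3% called higher, 3.43% called lower and so 14.7% called in either direction. At an unadjusted p under 0.05 stood 3 of the 9, *Sox9*, *Sox2* and *Sox5*, beside 44.0% of all genes tested. The log2 fold change was below 0 for 8 of the 9 *Sox* genes and above 0 for *Sox5* alone, beside 50.2% of all genes below 0, and the median over the 9 was -0.33, beside 0.00 over all genes (signs of *Sox1*, *Sox4* and *Sox11* turned under alternatives given with each gene). The groups overlapped for all 9, whereas 39.3% of all genes tested had groups that did not overlap in CPM, the count divided by the TMM-scaled size of its library.

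**Figure D1:**
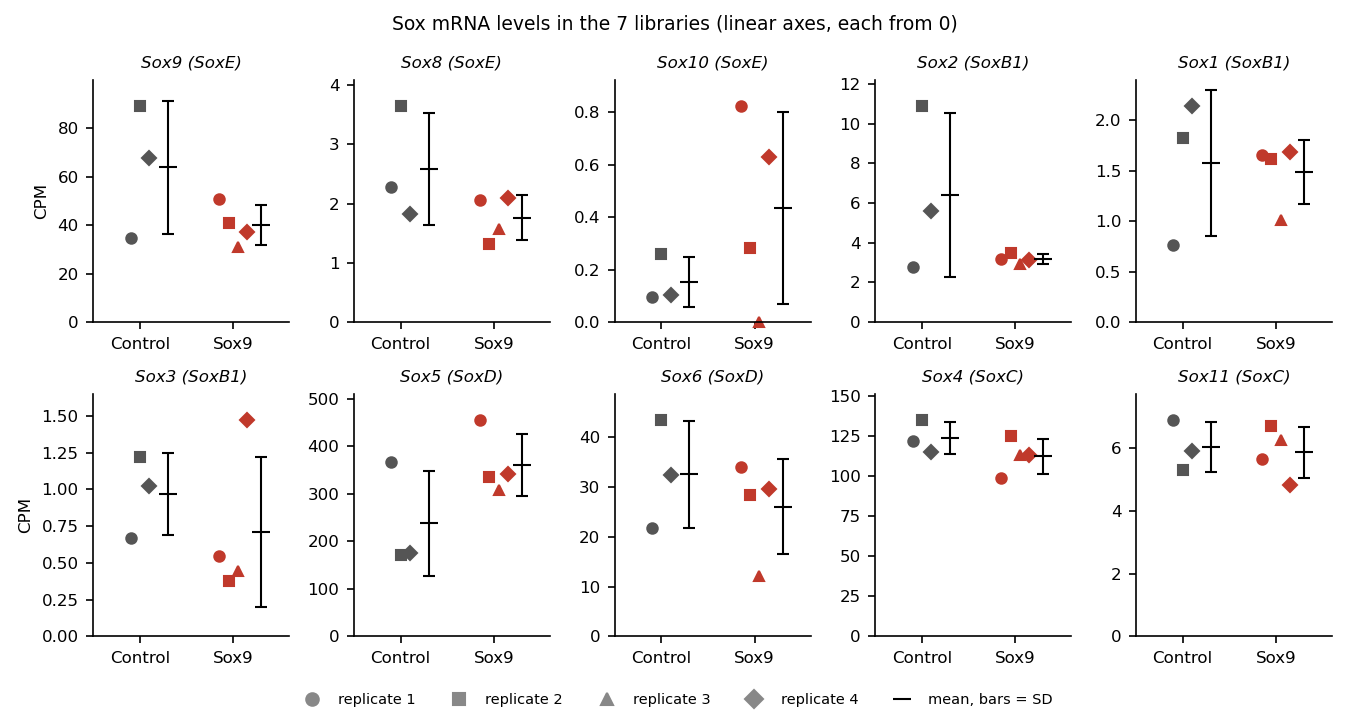
CPM of the 10 *Sox* genes in each library on linear axes from 0, with Control in grey and Sox9 in red, the symbol giving the replicate number, and black bars the mean with SD (n = 3 and n = 4). Control 2 was the highest control library and Control 1 the lowest for *Sox9*, *Sox2* and *Sox6*, and Control 1 was the highest for *Sox5*; the groups overlap in every panel.

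Total counts per library ranged from 4429704 to 12907778, with a lower median for Sox9 (7428918) than for Control (11592511), and the TMM factors were 0.893 to 0.941 in Control and 1.01 to 1.10 in Sox9. Neither the labels nor the methods give a date or batch. Fold changes differed with the level of a gene: the log2 fold change's median was 1.30 over the 5259 genes with a mean log2 CPM of 0 to 2, 0.07 over those of 2 to 4, -0.17 over those of 4 to 6 and -0.26 over the 3168 genes above 6. Called higher were 22.6% of the genes of 0 to 2, 13.0% of those of 2 to 4, 1.33% of those of 4 to 6 and 0.60% of those above 6, and called lower were 0.342%, 2.70%, 4.97% and 8.05%. The sorted cells are labelled neural progenitors. Markers of neurons summed to between 14300 and 17900 CPM in the control libraries and between 13200 and 15400 in the libraries labelled Sox9, those of radial glia to between 615 and 1160 and between 300 and 441 CPM, and those of intermediate progenitors to between 841 and 879 and between 688 and 856 CPM. Of the intermediate progenitor markers 2 of 8 were called lower and 0 higher. These were *Eomes* (Tbr2), at 37.5 ± 10.7 CPM in Control (SD, n = 3) and 7.86 ± 1.63 CPM in Sox9 (SD, n = 4), and *Btg2*, the *Tis21* gene, at 90.9 to 103 CPM in Control and 45.9 to 68.5 CPM in Sox9, whereas most of the sum was *Elavl4* and *Sstr2*, which were not called. *Eomes*, *Btg2*, *Elavl4* and *Sstr2* were named after their values were seen. Neuronal markers thus summed to far more than those of either progenitor type in every library, and progenitor markers were detected too. Sums over lists of different genes do not give shares of cells, so they do not test the label. In bulk RNA, fewer cells of a type and less RNA per cell cannot be told apart.

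*Sox9*, the SoxE gene carried by the construct and a factor of radial glia and of early gliogenesis, did not have more mRNA in the libraries labelled Sox9. Its CPM was 34.6, 89.2 and 67.9 in Control 1, 2 and 4, and 50.8, 41.1, 31.0 and 37.1 in Sox9 1 to 4. All 4 libraries with this label were below the control mean, and Control 1 lay among them. The means were 63.9 ± 27.5 CPM (SD, n = 3) and 40.0 ± 8.33 CPM (SD, n = 4), a ratio of 0.626. The log2 fold change was -0.68 (SE 0.25, 95% confidence interval -1.21 to -0.15, adjusted p = 0.0493 in edgeR's quasi-likelihood test), which ranked 5377th among the 16522 genes by p. The *Sox9* counts taken alone thus showed no rise with the label, and they are no test of which construct the cells received. Names of the groups refer to the libraries as labelled. A count on *Sox9* may come from the construct or from the endogenous gene, and the annotated coding sequence makes up 1521 of the 4135 bases of the annotated *Sox9* transcript (chr11:112782224-112787760, forward strand).

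Whether *Sox9* passed the threshold depended on 1 library and on the filter for low counts. Without Control 1 the log2 fold change was -0.99 and the adjusted p was 0.0028, and without Control 2 it was -0.37. Without a filter on low counts *Sox9* also passed, with an adjusted p of 7.71e-05 in edgeR and a log2 fold change of -0.78, and over all alternatives the adjusted p lay between 7.71e-05 and 0.393.

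Beside *Sox9*, the marker list of radial glia, in which *Sox2* is counted and *Sox9* is not, had 5 of 9 genes tested called lower and 0 higher, with a median log2 fold change of -1.19. Its summed level was 615, 1160 and 1000 CPM in Control 1, 2 and 4, and 435, 441, 300 and 433 CPM in Sox9 1 to 4. The control libraries thus stood in the same order as for *Sox9*, and Sox9 3 was lowest in both. Over all genes tested, Control 2 was the highest control library for 32.3%. The part of radial glial RNA in the *Sox9* level was not tested.

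*Sox8*, the closest relative of *Sox9*, was low. It had 2.29, 3.65 and 1.83 CPM in Control 1, 2 and 4, and 2.06, 1.32, 1.57 and 2.10 CPM in Sox9 1 to 4. The groups overlapped, though the control mean exceeded all 4 libraries labelled Sox9, at 2.59 ± 0.945 CPM (SD, n = 3). This gave a log2 fold change of -0.59 (SE 0.41, interval -1.47 to 0.30, edgeR adjusted p = 0.295). Leaving out 1 library gave -0.76 (without Control 4) to -0.25 (without Control 2). A transcript on the opposite strand, *2810468N07Rik*, shares 329 exonic bases with *Sox8*, and whether reads were counted by strand is not given in the sources used here, so reads of the pair may not be separated there. Its own counts were 5, 49 and 38 in Control 1, 2 and 4 and 9, 9, 10 and 3 in Sox9 1 to 4 (log2 fold change -1.55, SE 0.60, edgeR adjusted p = 0.0585).

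*Sox10*, which marks the oligodendrocyte lineage and neural crest derivatives, was at the edge of detection, with 1, 3 and 1 counts in Control 1, 2 and 4 and 6, 3, 0 and 3 counts in Sox9 1 to 4. The sums of 5 and 12 counts gave a rate ratio of 2.42 (exact 95% interval 0.793 to 8.76, counting error only). An exact permutation test of the mean CPM, two-sided over all 35 assignments of the 7 libraries, gave p = 0.314, where the smallest p that 3 against 4 libraries allow is 0.0286. The interval includes 1 and reaches 8.76, so neither equal levels nor a rise of that size is left out by these counts. Beside it, of the markers of oligodendrocyte precursors 4 of 5 tested were called higher, though no control library reached the filter's level for any of the 5, which were therefore tested only because of the libraries labelled Sox9. The list summed to between 0.814 and 1.56 CPM in the control libraries and between 9.73 and 27.9 CPM in the libraries labelled Sox9, with *Sox10* itself counted in it. Of the markers of neural crest and Schwann cells 1 of 2 tested was called higher, with sums of 9.65 to 10.9 and 17.8 to 20.3 CPM. Their part in the *Sox10* counts was not tested.

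The summed level of the SoxE genes was 66.6 ± 28.2 CPM in Control (SD, n = 3) and 42.2 ± 8.79 CPM in Sox9 (SD, n = 4), most of it *Sox9*.

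*Sox2*, the SoxB1 gene of neural stem cells and radial glia, had the most negative log2 fold change of the 9 genes in the edgeR fit, though not with cyclic loess, where it was -1.23 beside -1.97 for *Sox3* and -1.37 for *Sox8*. It had 29, 125 and 55 counts in Control 1, 2 and 4 and 23, 37, 26 and 15 in Sox9 1 to 4, or 2.77, 10.9 and 5.59 CPM against 3.16, 3.50, 2.91 and 3.15 CPM. The libraries labelled Sox9 were close together at 3.18 ± 0.242 CPM (SD, n = 4), above Control 1 and below the other two control libraries, whose group mean was 6.41 ± 4.11 CPM (SD, n = 3). The log2 fold change was -1.01 (SE 0.40, interval -1.87 to -0.16, edgeR adjusted p = 0.0652), and *Sox2* was not called. Leaving out Control 1 gave -1.39 and an adjusted p of 0.0123, and leaving out Control 2 gave -0.39 and 0.506. The difference thus hung on which control libraries were used. The order of the control libraries was that of the summed radial glial markers given above, in which *Sox2* is counted. The annotated host transcript *Sox2ot*, which spans *Sox2*, was not analysed here.

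*Sox1* and *Sox3*, which act like *Sox2* in progenitors, were near the lower limit of detection. *Sox1* had 0.765, 1.82 and 2.14 CPM in Control 1, 2 and 4, and 1.65, 1.61, 1.01 and 1.68 CPM in Sox9 1 to 4, which lay within the range of the control libraries. Its log2 fold change was -0.10 (SE 0.47, interval -1.10 to 0.91, edgeR adjusted p = 0.894), and the sign turned with a replicate block (0.15) and without any 1 of Control 2, Control 4 or Sox9 3 (0.02, 0.19 and 0.08). *Sox3* counts were 7, 14 and 10 in Control 1, 2 and 4 and 4, 4, 4 and 7 in Sox9 1 to 4, of which Sox9 4, the shallowest library, was the highest in CPM. Its log2 fold change was -0.59 (SE 0.57, interval -1.81 to 0.64, edgeR adjusted p = 0.462). The median gene of this level was higher in the libraries labelled Sox9, and *Sox1*, *Sox3* and *Sox8* were not: with cyclic loess normalization, which removes the trend with level, they had log2 fold changes of -1.11, -1.97 and -1.37, with limma adjusted p of 0.0981, 0.0172 and 0.029. The SoxB1 sum was 8.95 ± 4.85 CPM in Control (SD, n = 3) and 5.37 ± 0.792 CPM in Sox9 (SD, n = 4).

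**Figure D2:**
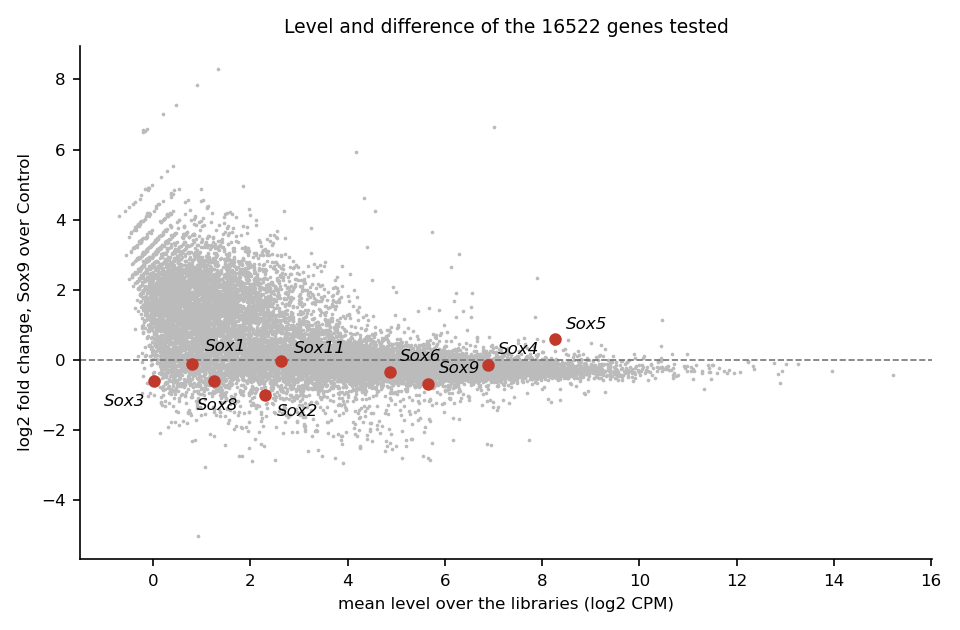
Log2 fold change of the libraries labelled Sox9 over the control libraries against the mean log2 CPM of each of the 16522 genes tested (grey), with the 9 *Sox* genes tested in red. At the left, where most genes lie above 0, *Sox1*, *Sox3* and *Sox8* lie below it at -0.10, -0.59 and -0.59, and at the right *Sox5* lies above 0 at 0.60.

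*Sox5*, the SoxD gene of deep-layer projection neurons, was the only one of the 9 with a positive log2 fold change, and it was the *Sox* gene with the most counts. Its CPM was 366, 172 and 176 in Control 1, 2 and 4, and 455, 336, 309 and 342 in Sox9 1 to 4. The 4 libraries labelled Sox9 were above the control mean and above Control 2 and 4, and Control 1 stood among them. The means were 238 ± 111 CPM (SD, n = 3) and 360 ± 64.7 CPM (SD, n = 4), a ratio of 1.52. Its log2 fold change was 0.60 (SE 0.23, interval 0.12 to 1.08, edgeR adjusted p = 0.0533), among genes of like level whose median was -0.26 and of which 19 of 3168 were called higher. Without Control 1 it was 1.03 with an adjusted p of 0.000735, and without a filter on low counts 0.51, also past the threshold. With cyclic loess it was 0.94 (limma adjusted p = 0.0172).

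**Figure D3:**
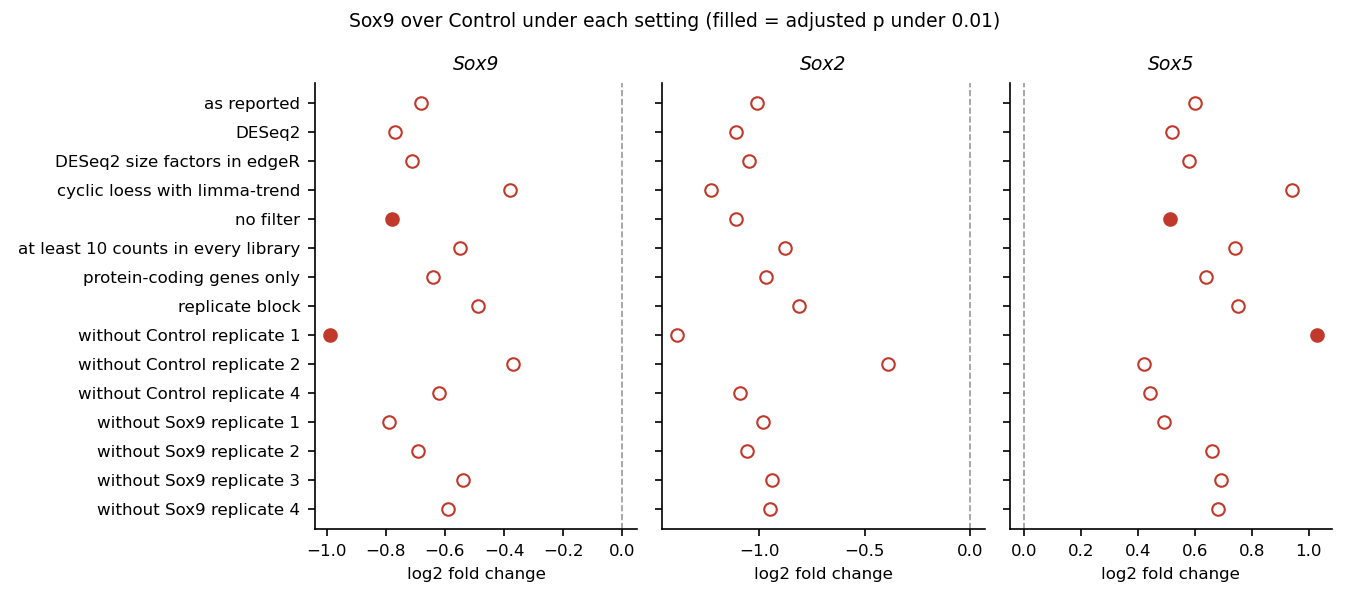
Log2 fold change of *Sox9*, *Sox2* and *Sox5* (horizontal axes, each with its own scale) under each processing setting, filled where the adjusted p was under 0.01. Values stay on one side of 0 for each gene, and filled points stand only for *Sox9* and *Sox5*, without a filter and without Control replicate 1.

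Control 1 was the highest control library for 5 of the 6 genes on the list of deep-layer genes around *Sox5*, and the highest of all libraries for 4, which did not include *Bcl11b*. Over all genes tested, Control 1 was the highest control library for 34.3%. *Fezf2*, which specifies subcerebral neurons, had 59.9 CPM in Control 1 against 21.8 and 19.1 in Control 2 and 4. *Bcl11b* had 118 CPM against 50.5 and 43.6, and *Cdh13* had 535 CPM against 211 and 230, while *Tbr1* and *Tle4* had 24.9 and 10.9 CPM in Control 1 and at most 21.7 and 8.34 in the other control libraries. These genes were named after their values were seen. Between the groups, 0 of the 6 were called in either direction, with a median log2 fold change of -0.10. Their levels in the libraries labelled Sox9 were between 27.6 and 46.4 CPM for *Fezf2*, between 50.1 and 137 for *Bcl11b* and between 232 and 367 for *Cdh13*.

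*Sox6*, the other SoxD gene, is known in cortical progenitors and in interneurons from the ganglionic eminence. It had 21.8, 43.4 and 32.4 CPM in Control 1, 2 and 4, and 34.1, 28.3, 12.2 and 29.6 CPM in Sox9 1 to 4, with Sox9 3 the lowest of all libraries. The fit gave a log2 fold change of -0.33 (SE 0.29, interval -0.95 to 0.29, edgeR adjusted p = 0.405). Leaving out 1 library gave -0.57 (without Control 1) to -0.06 (without Sox9 3), and the replicate block gave -0.05. Markers of ventral cells, a list without *Sox6*, had 0 of 3 tested genes called, with sums of 4.61 to 6.02 CPM in Control and 8.50 to 13.9 CPM in Sox9. Several annotated antisense transcripts of *Sox5* and *Sox6* had at most 7 counts in any library.

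*Sox4* and *Sox11* are the SoxC genes. *Sox4* had 122, 135 and 115 CPM in Control 1, 2 and 4, and 98.6, 125, 113 and 113 CPM in Sox9 1 to 4, with a log2 fold change of -0.14 (SE 0.12, interval -0.40 to 0.11, edgeR adjusted p = 0.382) that turned to 0.10 with cyclic loess. *Sox11* had 6.88, 5.30 and 5.90 CPM in Control and 5.63, 6.71, 6.26 and 4.82 CPM in Sox9. Its log2 fold change was -0.03 (SE 0.27, interval -0.61 to 0.55, edgeR adjusted p = 0.947), and its sign turned under 5 of 14 alternatives, among them at least 10 counts in every library (0.11). The interval of *Sox4* was the narrowest of the 9, and it included falls of up to 0.40 and rises of up to 0.11 on the log2 scale. The annotated transcript *Gm26735*, on the strand opposite to *Sox4* and sharing 2616 exonic bases with it, had at most 1 count in any library.

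**Figure D4:**
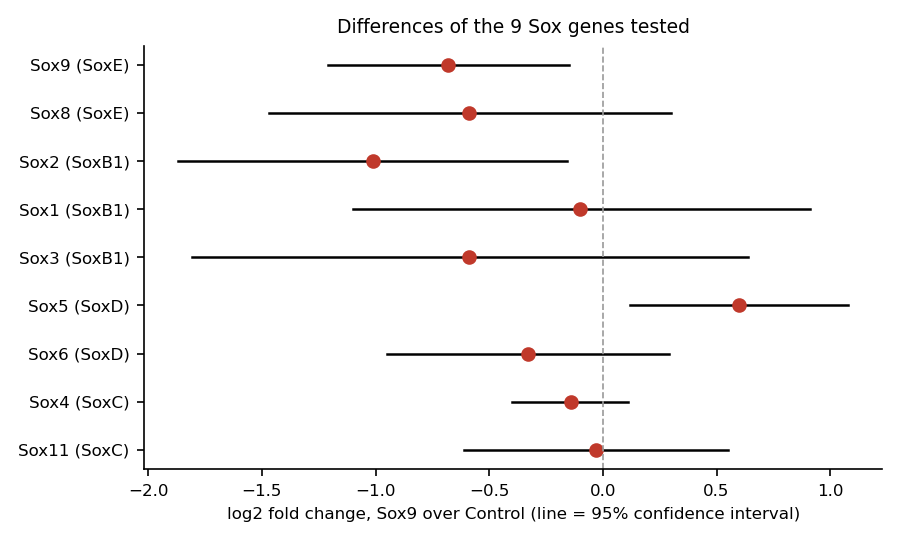
Log2 fold change of the libraries labelled Sox9 over the control libraries (dots) with 95% confidence intervals (lines) for the 9 *Sox* genes tested, from edgeR's quasi-likelihood fit. The intervals of *Sox9*, *Sox2* and *Sox5* leave out 0 and the other 6 include it, and no gene passed an adjusted p of 0.01.

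Levels of different genes were compared per kilobase of annotated exon. In the control libraries *Sox4* came first, with 25.9 ± 2.02 CPM per kilobase (SD, n = 3), followed by *Sox5* with 16.5 ± 7.72 and *Sox9* with 15.5 ± 6.65. Neighbours in this group of 3 overlapped between libraries, and all 3 were above the next, *Sox2* with 3.12 ± 2.00 and *Sox6* with 2.20 ± 0.73 CPM per kilobase. Then came *Sox8* with 0.831 ± 0.303 and *Sox11* with 0.725 ± 0.0961, which overlapped each other, *Sox3* with 0.469 ± 0.134 and *Sox1* with 0.326 ± 0.149, which did so too, and last *Sox10* with 0.050 ± 0.0307 CPM per kilobase. In the libraries labelled Sox9 *Sox5*, with 25.1 ± 4.50 CPM per kilobase (SD, n = 4), and *Sox4*, with 23.4 ± 2.26, were above *Sox9*, with 9.67 ± 2.01.

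**Figure D5:**
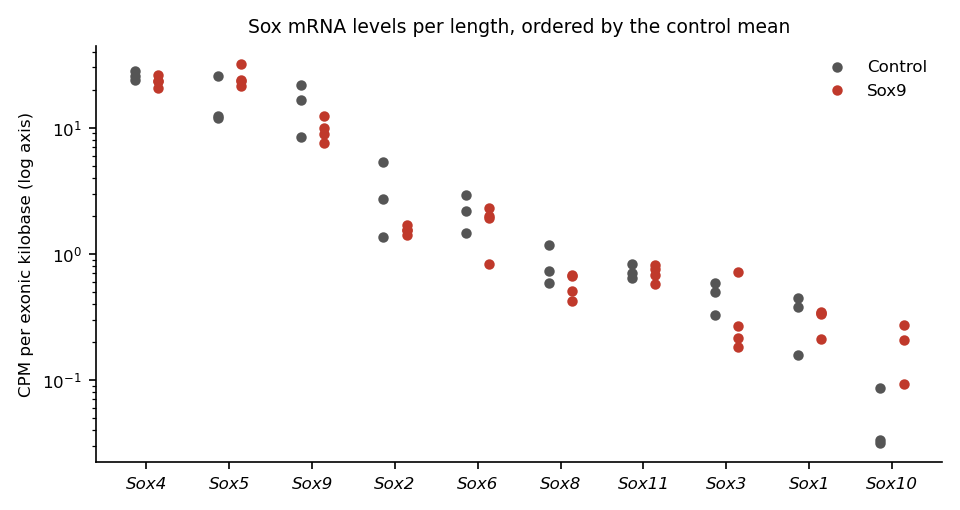
CPM per kilobase of annotated exon on a log axis for the 10 *Sox* genes, ordered by the mean of the control libraries (grey, n = 3) beside the libraries labelled Sox9 (red, n = 4); Sox9 3, with 0 counts of *Sox10*, is not drawn for that gene. *Sox4*, *Sox5* and *Sox9* lie above all others in the control libraries, and *Sox10* lies below them.

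The place of *Sox5* and *Sox6* in this order depends on the length used, and on whether reads in introns were counted, which is not given in the sources used here. The authors also deposited FPKM values, and the length that links them with the counts was close to the whole span of the gene, although the methods give kilobases of exon. For *Sox5* this length was 953229 bases, 66.3 times the exonic length, and for *Sox6* it was 38.3 times, against 1.34 times for *Sox9* and 1.54 times for *Sox8*. The 5 single-exon genes *Sox1*, *Sox2*, *Sox3*, *Sox4* and *Sox11* had the same length either way. In FPKM, *Sox5* was at 0.227 ± 0.104 in Control (SD, n = 3) and 0.404 ± 0.0794 in Sox9 (SD, n = 4), far below the 10.5 ± 4.45 and 7.71 ± 1.65 of *Sox9*. FPKM are not scaled by TMM, and for *Sox1*, *Sox4* and *Sox11* the group with the higher mean was the other one than in CPM (for *Sox4* 23.6 ± 1.29 in Control and 24.9 ± 1.69 in Sox9).

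Of 10 further *Sox* genes, 3 were tested and 0 were called. *Sox12*, a SoxC gene, had 58.3 ± 2.71 CPM in Control (SD, n = 3) and 52.1 ± 4.06 CPM in Sox9 (SD, n = 4), with a log2 fold change of -0.16 (SE 0.13, edgeR adjusted p = 0.366) that turned to 0.06 with cyclic loess. *Sox21*, a SoxB2 gene that opposes SoxB1 in progenitors, had 0.765, 3.04 and 3.15 CPM in Control 1, 2 and 4, and 1.51, 1.23, 1.45 and 1.05 CPM in Sox9 1 to 4 (log2 fold change -0.81, SE 0.50, edgeR adjusted p = 0.227). As for *Sox2*, its libraries labelled Sox9 lay between Control 1 and the other control libraries. *Sox13*, the remaining SoxD gene, had at most 14 counts in any library and no control library at the filter's level, so that it was tested only because of the libraries labelled Sox9, and its log2 fold change of 1.34 (SE 0.74, edgeR adjusted p = 0.176) turned to -0.41 with cyclic loess. *Sry* had 0 counts everywhere, *Sox15* and *Sox30* had 0 counts in the control libraries and at most 3 in any library labelled Sox9, and *Sox7*, *Sox17* and *Sox18*, genes of endothelial cells, and *Sox14* had at most 10.

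Among genes known to act with or after SOX proteins, POU factors that pair with SoxB1 had 1 of 4 called lower and 0 higher, with a median log2 fold change of -0.71. The gene called was *Pou3f2*, a factor of progenitors and upper-layer neurons, with 570, 666 and 754 CPM in Control 1, 2 and 4 and 278, 359, 448 and 361 CPM in Sox9 1 to 4, so that the groups were apart. Its log2 fold change was -0.88 (SE 0.15, edgeR adjusted p = 0.00104), and the call was lost with cyclic loess at an adjusted p of 0.0203 (log2 fold change -0.62).

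Of 11 SoxB1-related progenitor genes, 7 were called lower and 0 higher, with a median log2 fold change of -1.24. They share 8 genes with the radial glia markers. The 3 with the smallest p were *Prom1*, a membrane protein of the apical surface, at 83.8 ± 16.9 CPM in Control (SD, n = 3) and 35.2 ± 4.26 CPM in Sox9 (SD, n = 4), the glutamate transporter gene *Slc1a3* at 192 ± 53.1 and 76.2 ± 11.5 CPM, and *Vim*, an intermediate filament gene, at 116 ± 23.3 and 51.2 ± 9.01 CPM. Their log2 fold changes were -1.24 (SE 0.16, edgeR adjusted p = 0.000206), -1.33 (SE 0.17, 0.000213) and -1.17 (SE 0.16, 0.000334). These values are beside the *Sox2* log2 fold change of -1.01, whose standard error was 0.40.

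Of 11 cartilage genes known as targets of Sox9, 7 were tested, of which 2 were called higher and 0 lower, with a median log2 fold change of 1.39. This is near the background of their level: 5 of the 7 had a mean log2 CPM under 2, and of all genes of 0 to 2 the median was 1.30 and 22.6% were called higher. For 3 of the 7, among them *Acan*, no control library reached the filter's level of 0.956 CPM without TMM scaling, so that they were tested only because of the libraries labelled Sox9. *Acan*, a cartilage proteoglycan gene, had 1, 1 and 0 counts in Control 1, 2 and 4 and 17, 3, 18 and 11 in Sox9 1 to 4, a rate ratio of 24.7 (exact 95% interval 6.48 to 209.0, counting error only). *Col9a3*, a collagen IX chain gene, had 30, 12 and 46 counts in Control 1, 2 and 4 and 98, 68, 58 and 58 in Sox9 1 to 4 (log2 fold change 1.74, SE 0.44, edgeR adjusted p = 0.00941). The call of *Col9a3* was lost under 8 of 14 alternatives, with adjusted p up to 0.0358, among them leaving out Control 1 or 2 or any 1 of the libraries labelled Sox9. That of *Acan* was lost under 5 of 10, among them leaving out any 1 of the control libraries (edgeR adjusted p 0.0106, 0.0128 and 0.0132 without Control 1, 2 and 4). Its log2 fold change fell from 4.46 to 0.86 with cyclic loess. That setting adds a small count to each value before taking logs, which by itself draws fold changes of genes with few counts toward 0. Markers of mural and meningeal cells, which hold other collagen genes, summed to between 7.55 and 8.60 CPM in Control and between 11.2 and 20.6 CPM in Sox9, and their part in the cartilage genes was not tested. The 7 glial partners and targets of Sox9 and NFI had 0 called, with a median log2 fold change of -0.15.

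Of 10 oligodendrocyte lineage genes linked with SoxE, 8 were tested, of which 6 were called higher and 0 lower, with a median log2 fold change of 2.81. For 5 of the 8, *Pdgfra*, *Olig1*, *Olig2*, *Cspg4* and *S100b*, all of them called, no control library reached the filter's level, so these 5 could be tested only because of the libraries labelled Sox9, and the count and median support nothing about the list. The list shares 5 genes with the markers of oligodendrocyte precursors. *Pdgfra*, the receptor that marks precursors, had 3, 1 and 2 counts in Control 1, 2 and 4 and 74, 52, 28 and 34 in Sox9 1 to 4, a rate ratio of 31.6 (exact 95% interval 14.2 to 87.1). *Olig1* and *Olig2*, lineage transcription factors, had sums of 4 and 2 counts in Control and 60 and 49 in Sox9, with rate ratios of 15.1 (exact 95% interval 5.60 to 57.2) and 24.7 (6.48 to 209.0), counting error only. With cyclic loess the log2 fold change went from 3.83 to 1.21 for *Olig1* (limma adjusted p = 0.0897) and from 4.44 to 0.90 for *Olig2* (0.276). The small count added before taking logs also lowers such fold changes, and its part was not separated from that of the normalization. Both control counts of *Olig2* were in Control 2, without which its log2 fold change was 6.83 in edgeR, and the call was lost without Control 1 (adjusted p = 0.0153) or Control 4 (0.0144). The level of *Sox10*, the SoxE gene of this lineage, was at most 6 counts in the same libraries.

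Of 7 neuronal genes linked with SoxC, 0 were called in either direction, with a median log2 fold change of -0.19, near the -0.14 and -0.03 of *Sox4* and *Sox11*. They share 6 genes with the neuron markers.

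The sort kept cells with strong RFP, which needs both the construct and Cre activity, and so should leave out cells that do not descend from the electroporated progenitors. Astrocytes can descend from them, and their list holds genes that radial glia also express. Markers of further cell types gave 2 called higher and 2 lower of 5 astrocyte markers tested, 1 higher of 4 for endothelial cells, 1 higher of 6 for microglia, 2 higher of 3 for choroid plexus and 1 higher of 5 for mural and meningeal cells, each with 0 lower except for astrocytes. The 3 choroid plexus genes tested, the microglial gene called (*C1qa*) and 1 of the 2 astrocyte genes called higher (*S100b*) had no control library at the filter's level and were tested only because of the libraries labelled Sox9. Beside these stand the 22.6% of genes of 0 to 2 called higher, since 4 of the 4 endothelial, 4 of the 6 microglial, 3 of the 3 choroid plexus and 4 of the 5 mural and meningeal genes tested had a mean log2 CPM under 2. The summed level did not overlap between the groups for choroid plexus (1.05 to 1.56 CPM in Control and 9.07 to 14.0 CPM in Sox9), endothelial cells (2.87 to 10.5 and 11.5 to 24.0 CPM) and mural and meningeal cells, and overlapped for microglia (8.32 to 29.6 and 11.7 to 50.7 CPM). None of these sums exceeded 50.7 CPM in a library except that of astrocytes, which was between 154 and 361 CPM in Control and between 57.0 and 80.0 CPM in Sox9 and did not overlap either. The part of these cells in the levels of the *Sox* genes was not tested.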

How the data were processed

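The 7 RNA-Seq libraries came from sorted High RFP cells, with poly-dT primed cDNA and 75-base single-end reads without molecular identifiers. Exact intervals of rate ratios cover counting error only, and those of log2 fold changes the spread between libraries in edgeR's fit. The authors trimmed the reads with cutadapt and aligned them to mm10 with STAR (2.5.2b in the submitters' processing notes, with bcl2fastq 2.17.1.14). Deposited were unnormalized counts for each Ensembl gene and, also from the authors, FPKM values, in which counts are scaled by length and library. The counting program, its strand setting and its treatment of introns are not given in the sources used here.

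Groups and replicate numbers follow the sample titles. P-values measure the spread between these libraries, each a pool of embryos. Symbols, lengths and coordinates came from GENCODE M21 of GRCm38 (mm10), in which 36345 of 38124 genes were found. Tests used edgeR 4.0.16 under R 4.3.3 (TMM, filterByExpr, quasi-likelihood test, two-sided, no covariate, default settings), adjusted by Benjamini-Hochberg over the 16522 genes tested and called under 0.01. Alternatives were DESeq2 1.42.0, its size factors, cyclic loess with limma 3.58.1 trend, protein-coding genes only, no filter, a minimum of 10 counts per library, a replicate block, a threshold of 0.05 for counts of calls, and leaving out each library. Cyclic loess was run on log2 CPM with a small count added, which draws fold changes of genes with few counts toward 0. CPM are counts over TMM-scaled library sizes. The fits were tested on simulated data. Summaries and plots used Python 3.11.15 with scipy 1.17.1, numpy 2.4.6, matplotlib 3.10.9 and pandas 2.3.3.

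Members and lists were chosen with earlier results of these data known. Named were all 10 *Sox* genes, called genes of the other *Sox* and POU lists, the 3 called genes with the smallest p of each further list, and genes at 0. *Sox12*, *Sox13*, *Sox21*, the deep-layer genes and the intermediate progenitor markers were named after their values were seen.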

Additional observations from a re-analysis of the deposited data

Results flagged for a closer look

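In the 4 libraries labelled Sox9, the highest or lowest value stood far from the others for 2 of the 10 *Sox* genes, with a ratio of gap to range above Dixon's critical value. *Sox1* in Sox9 3 was at 1.01 CPM, from 9 counts, with the nearest other library at 1.61 CPM and a ratio of 0.894. *Sox3* in Sox9 4 was at 1.47 CPM, from 7 counts, with the nearest other library at 0.549 CPM and a ratio of 0.843. Chance flags about 5% of groups, and 10 groups were tested. The 3 control libraries were too few for this test.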

How the results depend on the processing

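The direction of *Sox2*, *Sox3*, *Sox5*, *Sox6*, *Sox8* and *Sox9* was the same under every alternative that gave a value (14 each, and 10 for *Sox3*, which filters removed without Control 2, Sox9 2 or Sox9 4 and at 10 counts in every library). Log2 fold changes turned for *Sox1* to 0.15 with the replicate block, for *Sox4* to 0.10 with cyclic loess, for *Sox11* to 0.11 with at least 10 counts in every library and to 0.01 with protein-coding genes only, and for *Sox12* (0.06) and *Sox13* (-0.41) with cyclic loess. Leaving out 1 library gave -0.44 to 0.19 for *Sox1*, -0.11 to 0.10 for *Sox11*, -0.99 to -0.37 for *Sox9* and 0.42 to 1.03 for *Sox5*, and of the 7 libraries only leaving out Control 1 brought *Sox9* (-0.99) and *Sox5* (1.03) past the threshold. Without a filter *Sox9* (-0.78) and *Sox5* (0.51) passed. The number of *Sox* genes called higher was then 1, and 0 to 1 on leaving out 1 library; the number called lower was 1 without a filter and 1 at an adjusted p under 0.05, and 0 to 1 on leaving out 1 library. Over all genes, 1862 were called higher and 567 lower. Called higher were 363 with cyclic loess, 638 with at least 10 counts, 3616 at 0.05 and 827 to 1590 on leaving out 1 library. Called lower were 1391 with DESeq2, 284 with cyclic loess, 1452 without a filter, 204 with at least 10 counts, 1787 at 0.05 and 208 to 475 on leaving out 1 library. DESeq2 and no filter tested 32481 and 32483 genes, with median log2 fold changes of 0.54 and 0.51. Replicate numbers did not pair the libraries (correlations of same-numbered libraries -0.0356, 0.118 and -0.00485). With the replicate block, 400 genes were higher and 218 lower, no *Sox* gene was called, and *Acan*, *Olig1* and *Olig2* had adjusted p of 0.0211, 0.0161 and 0.0278. The cause of these changes was not tested. *Sox1*, *Sox3* and *Sox10* rest on at most 21 counts in any library.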
